A study of Mus musculus with 6 samples.

Results

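Metallothioneins are small, cysteine-rich proteins that bind zinc and copper, and zinc transporters move zinc across membranes. The genes described here were taken by name, from a family chosen with earlier results of these data known. They are the metallothioneins Mt1, Mt2 and Mt3, the metal-sensing transcription factor Mtf1, the zinc exporters Slc30a1 and Slc30a2, and the zinc importers Slc39a1, Slc39a10 and Slc39a14. All 9 were found in the table, among 55995 features. RNA-seq was used on the gastrocnemius, a calf muscle, of NSG mice (NOD/SCID/IL2Rγ-null, an immunodeficient strain) that each carried a tumour of wild-type MDA-MB-231 human breast cancer cells, injected with Matrigel beneath the skin on the left. In the radiotherapy group the tumour, at about 800 mm3, received 10 Gy in a single exposure to 6 MV X-rays at 6 Gy per minute, and after 3 days the muscle of the opposite leg was taken. Control mice bore the tumour and had no irradiation. The sources used here give neither the age of the mice nor the tumour size and collection day of the controls. Each group held 3 libraries, numbered 1 to 3, which the labels do not tie to separate mice, so that p-values measure the spread between these libraries, which may be technical.

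Cells hold very little free zinc. Exporters of the SLC30 (ZnT) family carry zinc out of the cytosol, importers of the SLC39 (ZIP) family carry it in, and metallothioneins buffer it. When cytosolic zinc rises, MTF1 binds metal response elements in the promoters of Mt1, Mt2 and Slc30a1 and raises their transcription. Mt1 and Mt2 are also induced by glucocorticoids, and Mt1, Mt2 and Slc39a14 by interleukin-6 and other inflammatory signals, and in wasting muscle metallothioneins and Slc39a14 are known as induced genes.

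Values are TPM, transcript levels scaled for length and library size, so that levels can be compared between genes. Every library summed to the same total and held 19299 to 21311 features above 0, the read depth is unknown, and precision rests on the spread between libraries. The 10 skeletal muscle fibre markers together held 100130 to 107321 TPM in control, 144482 and 150585 TPM in radiotherapy replicates 1 and 2, and 81217 TPM in radiotherapy replicate 3. That last library stood apart. It was the highest of all 6 in 3582 of 11938 features tested (mean over the libraries 1 TPM or more), and each result below is given with its value shown. Over all tested features the median difference, radiotherapy minus control on the log2(TPM + 1) scale, was -0.36, and with median-of-ratios scaling of the libraries it was 0.01.

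Mt1 and Mt2 were among the most abundant transcripts of the control muscles, and in the radiotherapy group they were very low in 2 libraries and very high in the other. Mt1 was at 3572, 5199 and 2591 TPM in control replicates 1, 2 and 3, while radiotherapy replicates 1, 2 and 3 held 322, 620 and 14766 TPM. Mt2 was at 4715, 6983 and 3325 TPM across the controls, against 353, 796 and 13784 TPM after radiotherapy. Replicates 1 and 2 of the radiotherapy group thus lay below every control library for both genes, and replicate 3 above every control library. Relative to the control mean, Mt1 was 11.8-fold and 6.11-fold lower in radiotherapy replicates 1 and 2 and 3.90-fold higher in replicate 3. For Mt2 these ratios were 14.2-fold and 6.29-fold lower and 2.75-fold higher. Between radiotherapy replicates 3 and 1 the ratio was 45.9 for Mt1 and 39.0 for Mt2, beside 2.01 and 2.10 between the highest and lowest control library. By mean level over the libraries Mt2 and Mt1 ranked 29 and 30 among the 11938 features tested. In radiotherapy replicate 1 they ranked 280 and 296, and in replicate 3 they ranked 13 and 12.

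**Figure D1:**
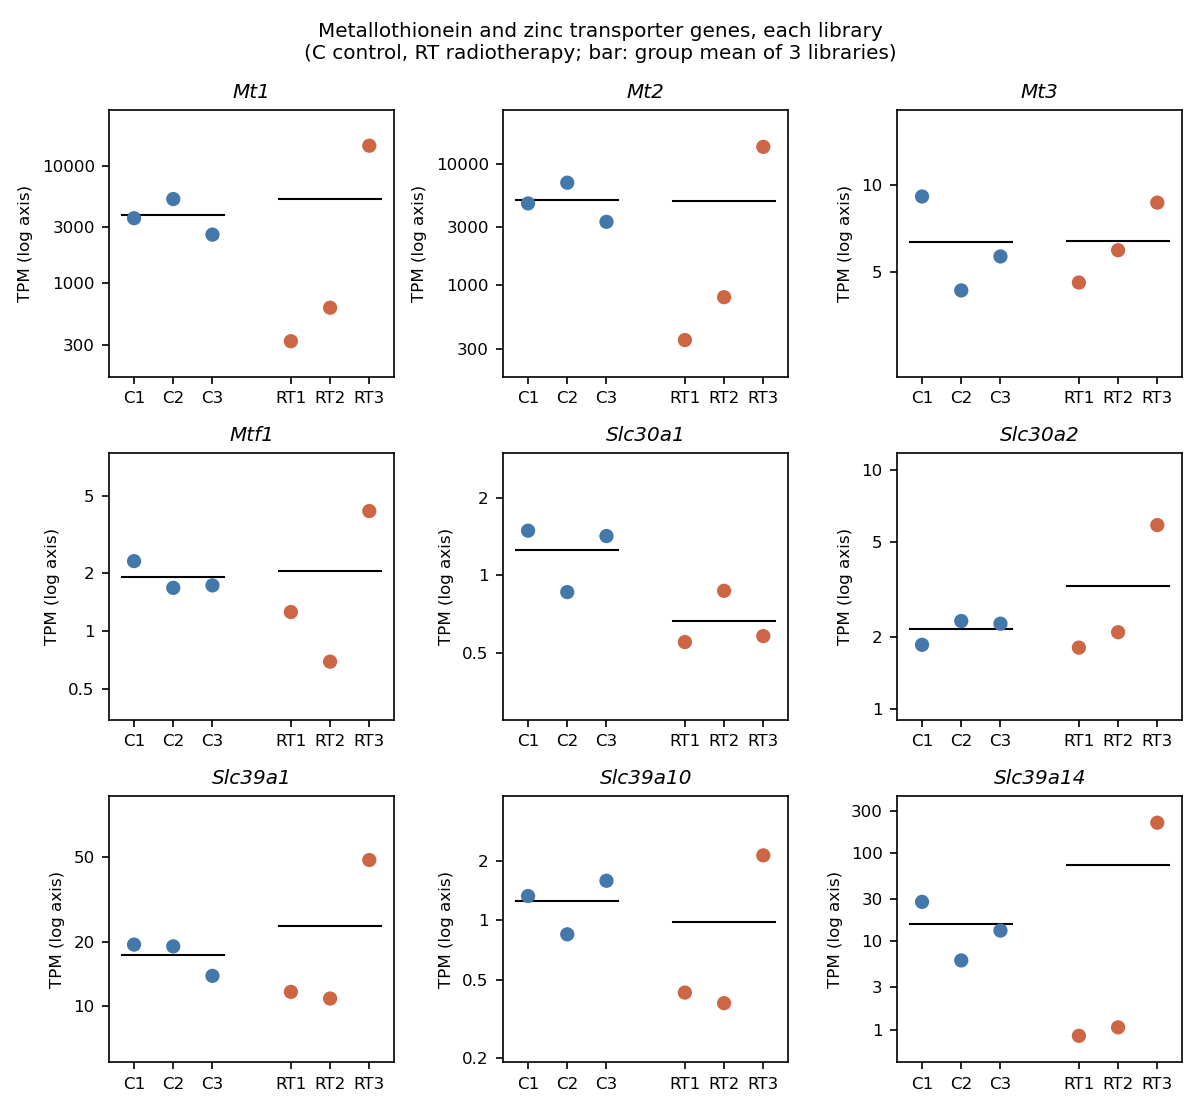
TPM (log axis) of the 9 genes in each control (C1 to C3) and radiotherapy (RT1 to RT3) library, with a bar at the mean of each group of 3. Mt1, Mt2 and Slc39a14 span the widest range within radiotherapy, with RT1 and RT2 under and RT3 over every control library. Mt3, Slc30a1 and Slc30a2 do not follow this order.

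The group comparison asked whether the genes differ in muscle of the opposite leg once the tumour has been irradiated. For Mt1 and Mt2 no difference between groups was found that exceeded the spread between libraries. The group means were 3788 ± 1317 and 5236 ± 8255 TPM for Mt1, and 5008 ± 1846 and 4978 ± 7630 TPM for Mt2 (control and radiotherapy, SD, n = 3 per group). On the log2(TPM + 1) scale the difference was -1.34 (SE 1.31) for Mt1 and -1.60 (SE 1.24) for Mt2, with an adjusted p of 0.606 and 0.527 by limma. The sign for Mt1 differs between the means of TPM and of log values, since the first is set by radiotherapy replicate 3. An exact two-sided permutation test gave p = 0.4 for each gene, where the smallest p that 3 against 3 libraries allow is 0.1. Without radiotherapy replicate 3 the differences became -3.02 for Mt1 and -3.17 for Mt2 and passed limma's test (adjusted p = 0.0124 and 0.0133). In that setting 27.6% of all tested features were called lower and 1.98% higher, and the median of all features was -0.57.

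The promoters of Mt1, Mt2, Mt3 and Slc30a1 were searched for the motif that MTF1 binds, and they are shown because Mt1 and Mt2 moved together over the 6 libraries while Mt3, which lies beside them, and Slc30a1 did not move with them. The sequences are from RefSeq in build GRCm38.p6, which is not the build mm9 named by the submitters. Of the 9 genes 8 matched, and Slc39a14, which had no window, was not searched for any motif. Each runs 5′ to 3′ on the gene's strand, from 250 bases before the start in that table to 30 bases after it. Capitals mark the core of the metal response element, TGCACNC or TGCGCNC, on either strand. Mt1 lies at chr8:94178839-94179118, Mt2 at chr8:94172368-94172647, Mt3 at chr8:94152357-94152636 and Slc30a1 at chr1:191906531-191906810, all on the plus strand.
Mt1: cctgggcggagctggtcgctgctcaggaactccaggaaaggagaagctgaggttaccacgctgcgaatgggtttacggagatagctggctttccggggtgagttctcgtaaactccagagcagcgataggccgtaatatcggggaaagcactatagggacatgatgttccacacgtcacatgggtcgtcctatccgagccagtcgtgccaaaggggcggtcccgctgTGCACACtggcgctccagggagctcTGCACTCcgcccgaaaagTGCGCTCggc
Mt2: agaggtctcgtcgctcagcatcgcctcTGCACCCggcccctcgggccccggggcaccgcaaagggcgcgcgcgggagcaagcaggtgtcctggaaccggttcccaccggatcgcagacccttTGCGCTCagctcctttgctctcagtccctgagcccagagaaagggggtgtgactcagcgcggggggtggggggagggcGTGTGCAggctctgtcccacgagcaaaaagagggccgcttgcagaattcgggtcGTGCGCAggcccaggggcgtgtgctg
Mt3: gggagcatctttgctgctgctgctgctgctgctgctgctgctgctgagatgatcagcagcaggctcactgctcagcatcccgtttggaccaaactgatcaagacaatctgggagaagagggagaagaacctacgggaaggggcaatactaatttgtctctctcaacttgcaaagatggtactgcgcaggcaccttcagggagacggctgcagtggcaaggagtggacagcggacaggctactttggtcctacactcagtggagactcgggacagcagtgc
Slc30a1: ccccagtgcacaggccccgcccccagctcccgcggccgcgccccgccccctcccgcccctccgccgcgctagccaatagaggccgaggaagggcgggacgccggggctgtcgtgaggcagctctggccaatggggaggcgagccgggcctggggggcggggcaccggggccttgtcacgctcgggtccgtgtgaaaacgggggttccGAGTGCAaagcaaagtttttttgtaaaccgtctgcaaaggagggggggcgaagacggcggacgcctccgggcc

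The starts of Mt2 and Mt1 are 6471 bases apart, and those of Mt3 and Mt2 are 20011 bases apart. The core was found 3 times in the window of Mt1, 4 times in that of Mt2 and 1 time in that of Slc30a1, with no overlap between matches. In Mt1 the match farthest upstream begins 23 bases before the start in that table, and the others begin after it, at positions 3 and 21. In Mt2 matches begin 223, 128 and 50 bases before the start, with 1 more after it. Whether these starts are the ones used in muscle was not checked, and bases beyond the windows were not searched. The counts and positions hold for these windows only. At least 3 matches were present in 1.73% of the 32851 windows of the table, at least 4 in 0.405% and at least 1 in 24.1%. The window of Slc30a2 held 2 matches (at least 2 in 6.37% of windows), and those of Mt3, Mtf1, Slc39a1 and the 2 starts of Slc39a10 held none. A second motif, TTCNNNGAA, the palindrome bound by STAT factors, was found in 1 window of Slc39a10 and in 7.83% of all windows, and CACGTG, the E-box bound by USF factors, in no window of these genes and in 6.79% of all. A match is a stretch of letters and not a measured binding site.

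Together Mt1 and Mt2 held 0.829%, 1.22% and 0.592% of all TPM in the control libraries. In radiotherapy replicates 1, 2 and 3 they held 0.0675%, 0.142% and 2.86%. The lowest and the highest share were both in the radiotherapy group. The balance of the paralogues shifted far less. The ratio of Mt2 to Mt1 was 1.32, 1.34 and 1.28 in control and 1.10, 1.29 and 0.934 in radiotherapy replicates 1, 2 and 3. Mt2 exceeded Mt1 in 5 of the libraries, and Mt1 exceeded Mt2 in radiotherapy replicate 3. The mean ratio was 1.32 ± 0.0302 in control and 1.11 ± 0.176 in radiotherapy (SD, n = 3 per group), which overlapped (exact two-sided permutation p = 0.2). The sources used here do not say how reads shared between these similar genes were divided, so the ratio carries that uncertainty.

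**Figure D2:**
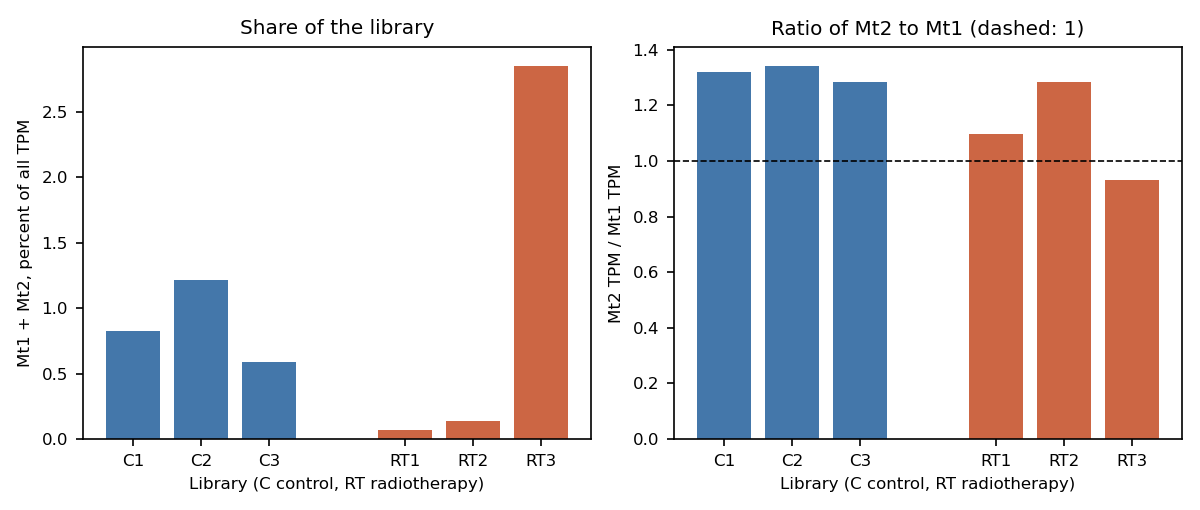
Left, the summed TPM of Mt1 and Mt2 as a percent of all TPM in each library. Right, the ratio of Mt2 to Mt1 TPM, with a dashed line at 1. The share runs from 0.0675% in RT1 to 2.86% in RT3, while the ratio stays between 0.934 and 1.34.

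Mt3, a metallothionein known mainly from brain, was far less abundant and did not follow its neighbours. It was at 9.15, 4.30 and 5.65 TPM across the controls, against 4.58, 5.94 and 8.71 TPM in radiotherapy replicates 1, 2 and 3. The groups overlapped fully, and the highest value was in control replicate 1. The difference was 0.02 (SE 0.34, adjusted p = 0.975 by limma). The 7 astrocyte markers together held 3.41 to 12.8 TPM across the controls, against 8.60 to 18.2 TPM in radiotherapy.

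Mtf1, the zinc-sensing activator of metallothionein genes, was expressed at a low level with a much narrower range than Mt1. It was at 2.30, 1.67 and 1.72 TPM across the controls, against 1.25, 0.69 and 4.19 TPM in radiotherapy replicates 1, 2 and 3. As for Mt1, radiotherapy replicate 3 was highest and replicates 1 and 2 lay below the controls, but Mtf1 was lowest in replicate 2 and Mt1 in replicate 1. The ratio of radiotherapy replicate 3 to replicates 1 and 2 was 3.35 and 6.07 for Mtf1, beside 45.9 and 23.8 for Mt1. The group difference was -0.09 (SE 0.44, adjusted p = 0.919 by limma), and it was 0.16 with median-of-ratios scaling.

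Of the exporters, Slc30a1 (ZnT1), which removes zinc across the plasma membrane and is a textbook target of MTF1, was low throughout. It was at 1.49, 0.86 and 1.42 TPM across the controls, against 0.55, 0.87 and 0.58 TPM in radiotherapy. Radiotherapy replicate 3, with the most Mt1 and Mt2, held 0.58 TPM of Slc30a1, under every control library and close to the 0.55 TPM of replicate 1. The groups overlapped in 1 library each, at 0.86 and 0.87 TPM. Its mean over the 6 libraries was under the 1 TPM minimum, so it was not tested, and the difference was -0.43 as a description (exact two-sided permutation p = 0.2). Slc30a1 was the only one of the 9 genes for which radiotherapy replicate 3 lay below every control library. In TPM replicate 1 was the lowest library, and with median-of-ratios scaling replicate 3 was, at 0.490 in scaled units beside 0.753 to 1.30 in control.

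Slc30a2 (ZnT2), which loads zinc into vesicles and is best known from secretory glands, was at 1.86, 2.34 and 2.28 TPM across the controls, against 1.81, 2.10 and 5.90 TPM in radiotherapy. Only radiotherapy replicate 3 left the control range upwards, 2.52-fold above the highest control library. The group difference was 0.31 (SE 0.38, adjusted p = 0.683 by limma), and without that library it was -0.10. The 8 epithelial markers together held 0.470 to 2.76 TPM in all libraries, with Krt5, Krt14 and Cldn4 at 0 in every control library.

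Slc39a14 (ZIP14), an importer of zinc, iron and manganese, had the widest range of the 9 genes. It was at 27.9, 6.07 and 13.2 TPM across the controls, against 0.85, 1.06 and 219.9 TPM in radiotherapy replicates 1, 2 and 3. Radiotherapy replicates 1 and 2 were 18.5-fold and 14.8-fold under the control mean, and replicate 3 was 14.0-fold over it and 7.88-fold over the highest control library. Between radiotherapy replicates 3 and 1 the ratio was 258.7. The controls themselves spanned 4.60-fold. The group difference was -0.60 (SE 1.78, adjusted p = 0.875 by limma), and it was -2.87 without radiotherapy replicate 3 (adjusted p = 0.0226). In the same setting with median-of-ratios scaling, tried after the data were seen, Slc39a14 was at -2.40 and no longer passed limma's test (adjusted p = 0.0580). Mt1 and Mt2 were at -2.31 and -2.46 there, with an adjusted p of 0.0427 and 0.0478. Of the 11938 tested features, 315 were called lower and 448 higher in that setting.

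The other importers varied less. Slc39a1 (ZIP1), a plasma membrane importer present in most tissues, was at 19.4, 19.0 and 13.8 TPM across the controls, against 11.6, 10.8 and 48.6 TPM in radiotherapy. Its radiotherapy replicate 3 was 2.50-fold over the highest control library, and the group difference was 0.10 (SE 0.57, adjusted p = 0.937 by limma). Slc39a10 (ZIP10), also an importer of the cell surface, was at 1.33, 0.85 and 1.59 TPM across the controls, against 0.43, 0.38 and 2.14 TPM in radiotherapy. Its group difference was -0.28 (SE 0.40, adjusted p = 0.727 by limma). Without radiotherapy replicate 3 neither passed, at -0.58 for Slc39a1 and -0.67 for Slc39a10 (adjusted p = 0.0865 and 0.0773).

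**Figure D3:**
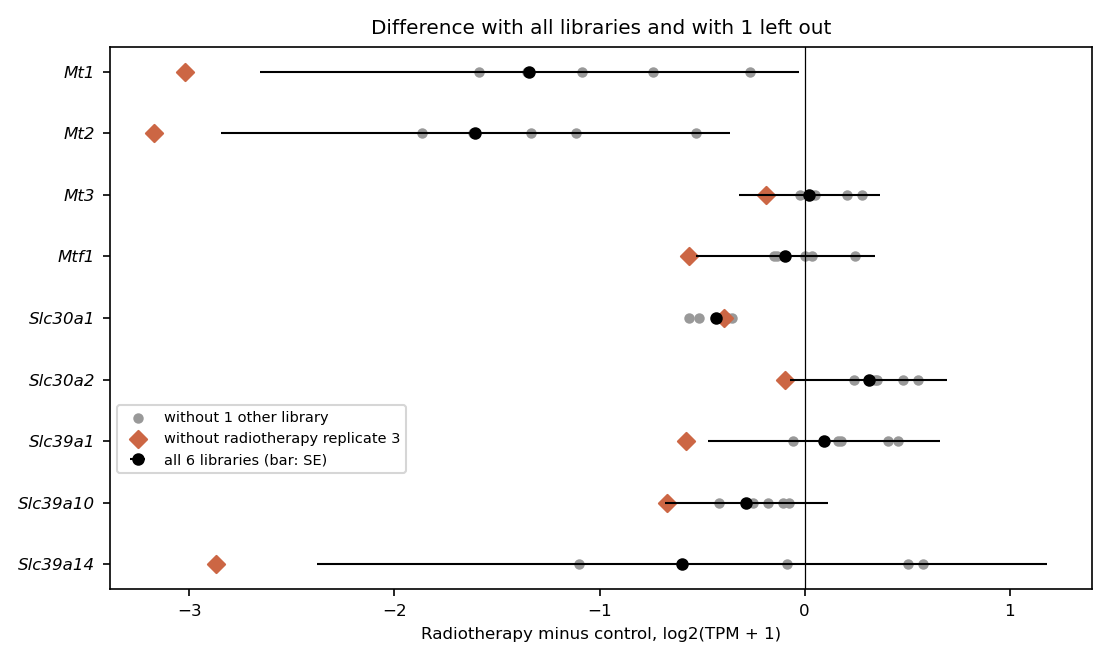
Difference between radiotherapy and control on the log2(TPM + 1) scale for each gene. Black points are all 6 libraries with the standard error (Slc30a1, not tested, has none), grey points leave out 1 other library, and diamonds leave out radiotherapy replicate 3. The diamonds of Mt1, Mt2 and Slc39a14 lie at -3.02, -3.17 and -2.87, while Slc30a1 scarcely moves.

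Ordered by control level, the genes ran from Mt2 (5008 ± 1846 TPM) and Mt1 (3788 ± 1317 TPM), which overlapped, through Slc39a1 (17.4 ± 3.12 TPM), Slc39a14 (15.7 ± 11.1 TPM) and Mt3 (6.37 ± 2.50 TPM) to the rarest 4. Slc39a14 overlapped with both of its neighbours in that order. Slc30a2 (2.16 ± 0.262 TPM) and Mtf1 (1.90 ± 0.350 TPM) overlapped with each other, as did Slc39a10 (1.26 ± 0.375 TPM) and Slc30a1 (1.26 ± 0.345 TPM). In radiotherapy replicates 1 and 2 Slc39a14, at 0.85 and 1.06 TPM, stood among the rarest of them, and in replicate 3 it was the third most abundant.

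Of the 9 genes 8 passed the minimum, and 0 of these were called as higher or lower with all libraries at an adjusted p under 0.05 by limma, beside 0.0419% of all tested features called higher and 0.0168% lower. Before adjustment, 141 features were higher and 1584 lower with p under 0.05, and none of the 8 genes was among them. None of the 8 was separated between the groups, beside 1.73% of features whose 3 radiotherapy libraries all lay above the controls and 19.3% whose libraries all lay below. Their median difference was -0.19. The order with radiotherapy replicate 3 highest of the 6 libraries and replicates 1 and 2 below every control library was met by 6 of the 8, namely Mt1, Mt2, Mtf1, Slc39a1, Slc39a10 and Slc39a14. It was met by 19.3% of all tested features. This order was noticed in the data. The 1 TPM minimum takes in radiotherapy replicate 3, so which genes were counted depends in part on that library. Slc39a10, at 2.14 TPM there and 0.38 to 1.59 TPM elsewhere, passed only through it, with a mean of 1.12 TPM. Slc30a1, at 0.58 TPM there, had a mean of 0.96 TPM, was not counted and did not meet the order. With median-of-ratios scaling 4 of the 8 met the order (Mt1, Mt2, Slc39a10 and Slc39a14), beside 8.17% of features. Relative to the highest of the other 5 libraries, radiotherapy replicate 3 was higher by 2.93 for Slc39a14, 1.51 for Mt1, 1.28 for Slc39a1, 1.05 for Slc30a2 and 0.98 for Mt2 on the log2(TPM + 1) scale, where the median feature was at -0.33. Slc39a14 had the 79th and Mt1 the 287th highest value of that ratio among 11938 features.

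**Figure D4:**
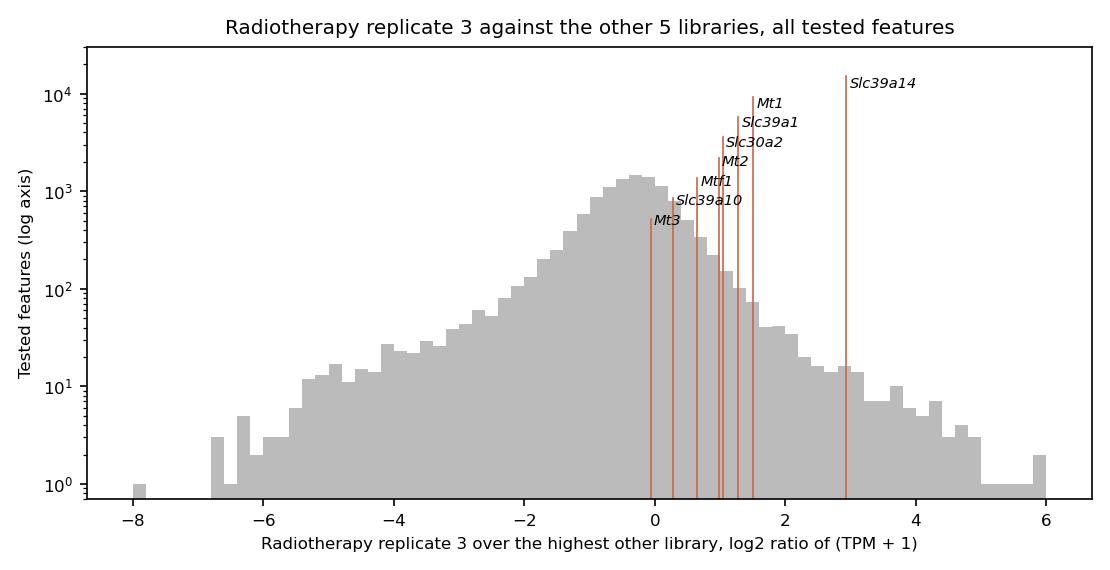
Histogram over all 11938 tested features of the log2 ratio of radiotherapy replicate 3 to the highest other library, from TPM + 1, with a log count axis. Lines mark the 8 tested genes, from Mt3 at -0.06 to Slc39a14 at 2.93.

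None of the remaining zinc transporters passed the test with all 6 libraries. Of 20 further transporters and Mt4, 10 passed the minimum, 0 were called by limma in either direction, and Mt4, Slc30a8 and the vesicular transporter Tmem163 were at 0 in every library. All 10 had a difference below 0, beside 78.5% of all tested features, and their median was -0.27, above the -0.36 of all features. Slc30a6 and Slc39a3 were lower in all 3 radiotherapy libraries, 2 of 10 beside the 19.3% given above. Slc30a6 (ZnT6), which loads the secretory pathway, was at 4.44 ± 0.683 TPM and 2.96 ± 0.575 TPM (control and radiotherapy) (adjusted p = 0.402 by limma). Slc39a3 (ZIP3) was at 5.45 ± 0.859 and 3.79 ± 0.650 TPM (adjusted p = 0.420). Slc30a4 was at 2.77 ± 0.703 and 2.17 ± 1.56 TPM and Slc39a13, a transporter known for its role in connective tissue, at 13.0 ± 3.76 and 9.06 ± 0.996 TPM (SD, n = 3 per group). Slc30a9, at 18.7 ± 0.859 and 16.5 ± 1.496 TPM, had a difference of -0.18, and of 0.27 under median-of-ratios scaling. Radiotherapy replicate 3 was the highest library in 6 of the 10, beside 30% of features. The widest of these 6 was Slc39a7 (ZIP7), which releases zinc from the endoplasmic reticulum. It was named for its values, 38.2, 47.7 and 25.6 TPM across the controls, against 16.4, 14.7 and 77.9 TPM in radiotherapy. Without radiotherapy replicate 3, 1 of the 10 was called lower, beside 27.6% of features. This was Slc39a7, at -1.16 (adjusted p = 0.0338 by limma).

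**Figure D5:**
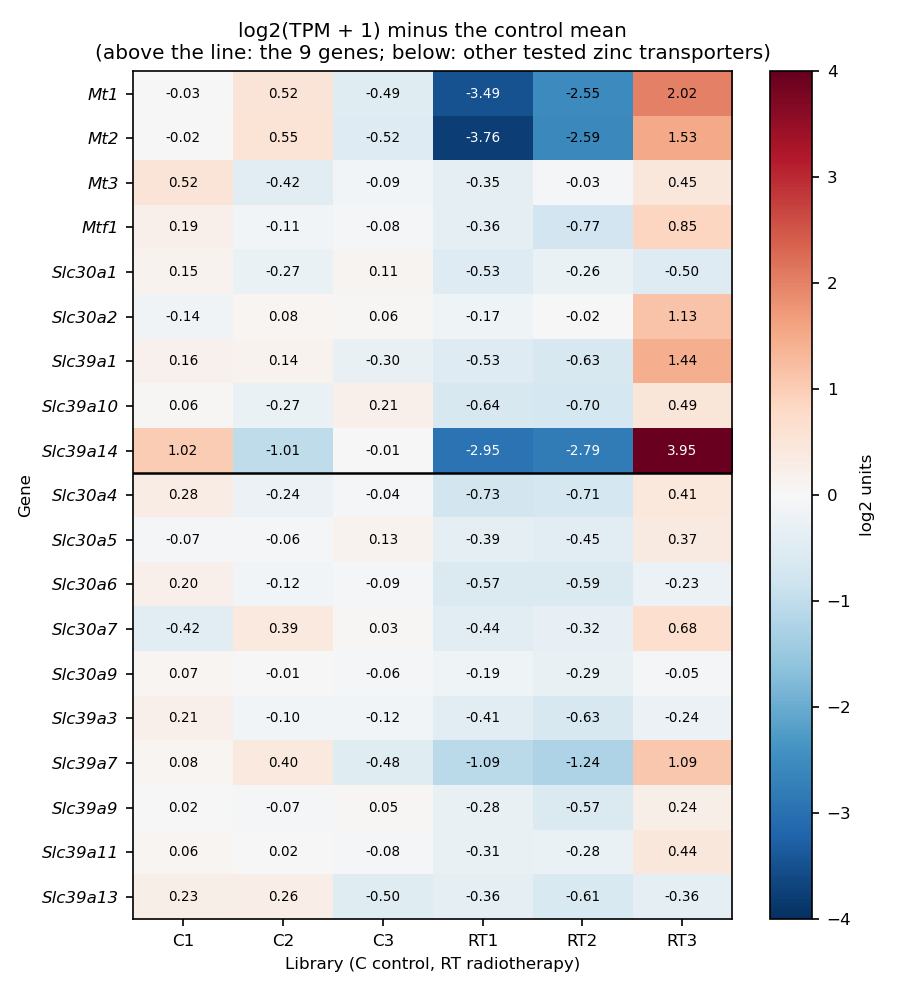
Each cell gives log2(TPM + 1) of 1 gene in 1 library minus the mean of the 3 control libraries, from blue (lower) to red (higher). The 9 genes stand above the line and the 10 other tested zinc transporters below it. Mt1, Mt2 and Slc39a14 reach from -3.76 to 3.95, while the transporters below the line stay between -1.24 and 1.09.

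Of 17 genes of factors known to act on metallothionein genes, 14 lay below every control library in radiotherapy replicates 1 and 2, beside 58.8% of features. By limma with all libraries 0 were called, and Ep300, Sp1 and Jak1 were among those lower in all 3 radiotherapy libraries, as were 19.3% of features. Their median difference was -0.66, beside -0.36. Without radiotherapy replicate 3, 10 of the 17 were called lower, beside 27.6% of features, and the median was -0.99. Ep300, a coactivator of MTF1, was at 4.04 ± 1.57 TPM across the controls, against 1.38 ± 0.575 TPM in radiotherapy, and Sp1, a promoter-binding factor, at 2.87 ± 0.730 and 1.28 ± 0.545 TPM (SD, n = 3 per group), with an adjusted p of 0.299 and 0.332 by limma. Nfe2l2 (NRF2), the oxidative stress factor, was at 27.8 ± 3.88 and 14.1 ± 8.68 TPM. In none of these was radiotherapy replicate 3 above every control library, as it was for Mt1. It was the highest library in 5 of the 17, beside 30% of features. These were Cebpb, Cebpd, Hif1a and 2 others: Stat3, the factor that transmits interleukin-6 signals, and Socs3, its feedback inhibitor, named after their values were seen. Stat3 was at 48.9, 27.5 and 30.2 TPM across the controls, against 9.87, 13.8 and 77.1 TPM in radiotherapy, and Socs3 at 61.95, 55.7 and 47.0 TPM and at 2.95, 3.49 and 149.0 TPM.

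The glucocorticoid and acute-phase programmes, both known to include metallothioneins, were set beside them. Of 15 glucocorticoid target genes 0 were called and 5 were lower in all 3 radiotherapy libraries, beside 19.3% of features, with a median difference of -0.95. Radiotherapy replicate 3 was the highest library in 6 of the 15, beside 30% of features. Without it, 10 of the 15 were called lower, beside 27.6% of features, and the median was -1.63. Fkbp5, which tunes the glucocorticoid receptor, was at 97.0, 82.3 and 85.2 TPM across the controls, against 10.5, 19.0 and 81.9 TPM in radiotherapy. Pik3r1, Klf9, Glul and Ddit4 were likewise lower or no higher in that library than in the highest control. Of 16 acute-phase genes tested, 0 were called, none was separated between groups, and radiotherapy replicate 3 was the highest library in all 16, beside 3582 of 11938 features. Orm3, Fga, Fgg and Serpina3m passed the 1 TPM minimum only through that library, so a high value there was a condition of their being counted. The median difference of the 16 was 0.37. Without radiotherapy replicate 3 it was -1.33, with 7 of the 16 called lower, beside 27.6% of features. Saa3, serum amyloid A3, was at 762, 207 and 64.2 TPM across the controls, against 2.33, 2.18 and 3241 TPM in radiotherapy, and Lcn2, lipocalin 2, at 316, 554 and 233 TPM and at 18.2, 10.8 and 4327 TPM. Orm3 and Fgg, an orosomucoid and a fibrinogen chain, were at 11.7 and 6.26 TPM in radiotherapy replicate 3 and at 0 to 1.51 TPM in the other 5 libraries. Cebpd, Lcn2 and Serpina3n are in both lists and are 3 of the 6 glucocorticoid target genes with radiotherapy replicate 3 highest. Cebpd and Socs3 are also in the regulator list.

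Over the radiotherapy libraries the summed neutrophil markers took the order of Mt1, Mt2 and Slc39a14, but not over the controls. Control replicate 3 held the most of these markers and the least Mt1 and Mt2. The 10 markers together held 82.7, 74.3 and 185.9 TPM across the controls, against 10.8, 18.6 and 2969 TPM in radiotherapy replicates 1, 2 and 3. The order described above was met by 7 of 7 tested, beside 19.3% of all tested features. Cxcr2, Ngp and Mmp8 passed the 1 TPM minimum only through radiotherapy replicate 3, so a high value there was a condition of their being counted. All 10 were above 0 in radiotherapy replicate 3, and Elane was at 0 in every control library. S100a8 and S100a9, whose product calprotectin binds zinc outside cells, were at 1141 and 1574 TPM in radiotherapy replicate 3, and the granule genes Mpo and Elane at 0.22 and 0.24 TPM. The 10 macrophage markers together held 71.9 to 225.8 TPM across the controls, against 72.1, 116.0 and 397 TPM in radiotherapy. In radiotherapy replicate 3, Cd68 and Lyz2 alone held 121 and 190 TPM, and Csf1r and Itgam held 5.96 and 7.80 TPM. C1qa, C1qb, C1qc, Cd163, Mrc1 and Adgre1 were within the control range in that library. Endothelial markers were at 175.5 to 187.6 TPM and at 169.5, 149.8 and 328 TPM, and fibroblast markers at 282 to 454 TPM and 422, 438 and 206 TPM. Radiotherapy replicate 3 was highest in 4 macrophage, 5 endothelial and 1 fibroblast marker of 10 each, beside 3582 of 11938 features. Of the fibroblast markers 3 (Col1a1, Col3a1 and Pi16) were higher in all 3 radiotherapy libraries, beside 1.73% of features. Another 3 had a difference below 0, namely Dcn (-0.49), Cd34 (-0.36) and Gsn (-0.26), and the median of the 10 was 0.19. The part of these cell types in the metallothionein and Slc39a14 values was not tested. In bulk muscle, fewer cells of a type and less RNA per cell cannot be told apart.

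The genes whose levels followed the mean log2(TPM + 1) of Mt1 and Mt2 most closely over the 6 libraries, among 6734 features averaging 5 TPM or more, were Gnl3, Sppl3, Epb41l4aos, Atoh8, Lars and Ipo13, with a Pearson r from 0.993 to 0.999. Gnl3, nucleostemin, a nucleolar GTP-binding protein, was at 37.8, 44.0 and 32.5 TPM across the controls, against 12.2, 16.1 and 70.2 TPM in radiotherapy. Atoh8, a basic helix-loop-helix factor, was at 18.3, 23.2 and 13.2 TPM and at 2.91, 4.29 and 51.4 TPM. The r is a description of 6 libraries that share radiotherapy replicates 1, 2 and 3 as extremes, and 21.1% of the features compared had an r of at least 0.9.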

How the data were processed

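RNA-seq of 3 control and 3 radiotherapy gastrocnemius libraries was used. A TruSeq kit was used on total RNA, per the labels' protocols. The authors deposited 1 table of TPM per gene. HISAT2, StringTie, RSEM and the build mm9 are named, without roles or versions, per the submitters' processing notes. No read counts were used.

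Columns were matched to samples by title. Features averaging 1 TPM or more were tested on log2(TPM + 1) with limma 3.58.1 in R 4.3.3 (empirical Bayes with a trend, two-sided, no covariates, Benjamini-Hochberg adjustment over all 11938 tested features, threshold 0.05). The fit was tested on simulated data. The 9 genes and the lists were chosen with earlier results of these data known. Named besides them were up to 5 tested genes of each list with the smallest p and the 6 features most like Mt1 and Mt2. A gene that this rule names is not reported here. Promoter windows came from RefSeq (GRCm38.p6). Python 3.11.15, scipy 1.17.1 and matplotlib 3.10.9 were used. The alternatives tried were a pseudocount of 0.1 or 0.5, a minimum mean of 5 TPM, no filter, median-of-ratios scaling, rescaling without mitochondrial genes and the 20 most abundant features, quantile normalisation, no trend, robust fitting, the replicate number as a block, and each library left out.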

Additional observations from a re-analysis of the deposited data

How the results depend on the processing

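No alternative with all 6 libraries called any of the 9 genes. Without radiotherapy replicate 3, 3 were called (Mt1, Mt2 and Slc39a14), with 0 to 3 over the libraries left out. With median-of-ratios scaling as well, 2 were called, beside 315 of 11938 features called lower and 448 higher. Over all features, 5 were called higher and 2 lower. These counts became 0 and 0 without a filter, 3 and 1 with median-of-ratios scaling or quantile normalisation, 4 and 1 when only features averaging 5 TPM or more were kept, 5 and 5 with a pseudocount of 0.1, 5 and 4 without mitochondrial and abundant features, and 4 and 0 with the replicate block. With single libraries left out they ran from 0 to 236 higher and from 0 to 3298 lower, with the highest of both without radiotherapy replicate 3. They were 0 and 4, 1 and 12, and 0 and 1 without control replicates 1, 2 and 3, and 3 and 0, and 8 and 1 without radiotherapy replicates 1 and 2. The median of the genes, -0.19, became 0.0229 with median-of-ratios scaling and 0.0501 with quantile normalisation, -0.46 with a pseudocount of 0.1 (all features -0.45) and -0.60 for a minimum mean of 5 TPM (all features -0.42), and ran from -0.62 to 0.15 with single libraries left out, where the highest values came without radiotherapy replicates 1 (0.12) and 2 (0.15). Changes of sign with median-of-ratios scaling were Mtf1 (0.16), Slc30a9 (0.27), Ccs (0.0017) and Slc11a2 (0.0601). With quantile normalisation they were Mtf1 (0.13), Slc30a9 (0.24) and Slc11a2 (0.0290), and without mitochondrial and abundant features Slc30a9 (0.0198). With single libraries left out the difference ran from -0.56 to 0.25 for Mtf1, -0.19 to 0.28 for Mt3, -0.58 to 0.46 for Slc39a1, -2.87 to 0.58 for Slc39a14, -0.10 to 0.55 for Slc30a2, -0.13 to 1.70 for Orm3 and -0.16 to 1.07 for Fgg. The cause was not tested. The labels give no pairing of same-numbered libraries. Their deviations from the group mean had correlations of -0.05, -0.11 and -0.20 over features. With 3 libraries per group and radiotherapy replicate 3 opposite to the other 2, these values can neither show nor exclude a pairing. The replicate block changed no call among the 9 genes.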

Other observations

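Genes that handle copper and iron were measured beside the zinc genes. Of 16, 14 were tested, 0 were called by limma, and 2, Slc40a1 and Ccs, were lower in all 3 radiotherapy libraries, beside 19.3% of all tested features. Slc40a1, ferroportin, the iron exporter, held 2.28 ± 0.235 TPM in control against 1.05 ± 0.537 TPM in radiotherapy, and Ccs, the copper chaperone of superoxide dismutase, 18.8 ± 3.39 against 13.5 ± 2.2 TPM (SD, n = 3 per group). The difference of Ccs, -0.45, was 0.0017 with median-of-ratios scaling. Gclc, of glutathione synthesis, held 3.05 ± 0.560 against 1.93 ± 0.455 TPM, Slc11a2, an iron importer, 5.84 ± 1.35 against 4.77 ± 2.57 TPM, and Commd1, of copper handling, 46.5 ± 8.78 against 60.9 ± 15.5 TPM. Hmox1, haem oxygenase, named after its values were seen, held 14.5, 9.08 and 13.4 TPM in the controls against 2.76, 2.68 and 65.1 TPM in radiotherapy replicates 1, 2 and 3, with the last library highest as for Mt1.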
